A study of Penaeus vannamei with 6 samples.

Results

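The gill transcriptome of whiteleg shrimp (Litopenaeus vannamei, now Penaeus vannamei) reared as juveniles in brackish water was compared with that of juveniles reared in seawater, per assembly component. A component is a group of assembled transcripts that share sequence and carry one component ID, and it stands here in place of a gene. The level of a component was the sum of the RPKM (read number scaled to transcript length and to library size) of all its transcripts. Components with a mean summed RPKM of at least 5 over 2 brackish water and 2 seawater libraries were kept, which gave 6530 of 321483 components and 13830 of 341828 transcripts. The animals differed by culture water alone as far as the labels say: juveniles in brackish water, juveniles in fresh water and juveniles in seawater. The sources used here give no salinity values, no time in culture and no number of animals behind a library. The study describes 3 libraries for each water, but the series holds 2 for each, and all of these were used. Fresh water libraries entered the statistical fit and are quoted beside the compared groups where useful.

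The gill is the main organ of ion exchange in decapod crustaceans. In dilute water its epithelium takes up sodium and chloride against a gradient, powered by the Na+/K+-ATPase of the basolateral membrane and helped by proton pumps, carbonic anhydrase and cotransporters. Less uptake is needed as the ionic strength of the water nears that of the blood, and the whiteleg shrimp lives across a wide range of salinity. The deposited files pair component IDs with no gene name or sequence, and 0 of 321483 component IDs matched a RefSeq gene entry of this species. No role can therefore be given to any component, the labelled tissue could not be checked against gill markers, and the results are ordered by level, by library and by the build of the components.

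Depth was 37027007 and 35347475 reads in brackish water libraries 1 and 2, 30152208 and 23195528 reads in fresh water, and 16500257 and 33130083 reads in seawater. The kept components held 88.1% and 97.8% of the reads of brackish water libraries 1 and 2, and 96.0% and 95.1% of those of seawater libraries 1 and 2. The median kept component had 1194 and 363 reads in the brackish water libraries and 318 and 712 reads in the seawater libraries. The 10 largest components took 17.9% of the reads of brackish water library 1 and 49.1% of those of library 2, against 18.4% and 16.3% in seawater. Over the whole assembly, 188113 components had a read in brackish water library 1 and 49877 in library 2, at similar depth. The numbers were 191257 and 198034 in fresh water, and 44297 and 60373 in seawater. By this number too, brackish water library 1 stood with fresh water and library 2 with seawater. The cause was not tested. On log2(RPKM + 1) of the kept components the brackish water pair had a Pearson's r of 0.62, and the seawater pair one of 0.73. Brackish water library 1 was nearer to the fresh water libraries (r of 0.80 and 0.82) than to library 2 of its own group, and had an r of 0.46 and 0.78 with the seawater libraries. Brackish water library 2 had an r of 0.74 and 0.62 with fresh water and of 0.80 and 0.79 with seawater. Both seawater libraries were thus nearer to brackish water library 2 than to each other, while the fresh water pair had an r of 0.94. The group labels were used as deposited, and whether each brackish water and seawater library carries the right one was not tested. Components are not independent replicates, and this r describes the libraries only.

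No component passed the test for a difference between brackish water and seawater. With limma on log2(RPKM + 1) and all 6 libraries in the fit, 0 of 6530 components had a Benjamini-Hochberg adjusted p under 0.05 in either direction (0% called higher and 0% called lower), and the smallest adjusted p was 0.694. At an unadjusted p under 0.05 there were 351 components, 208 higher and 143 lower in brackish water. The edgeR quasi-likelihood test on the recovered reads also called 0, with 864 components at an unadjusted p under 0.05, while DESeq2 on the same reads called 625, of which 498 were higher (7.63% of all tested) and 127 lower (1.94%). With the 4 compared libraries alone limma called 14, of which 11 were higher (0.168%) and 3 lower (0.0459%). In that fit the prior degrees of freedom were infinite, so all components of 1 level were given the same spread. Leaving out seawater library 1 gave 1 call and leaving out seawater library 2 gave 2, while 12 and 13 calls were made when fresh water library 1 or 2 was dropped. The labels do not tell whether replicate libraries stem from different animals or tanks, so p-values measure the spread between these libraries, which may be technical.

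On RPKM as deposited, the spread between the brackish water libraries was larger than the difference between the groups for most components. The absolute difference on the log2(RPKM + 1) scale had a median of 1.69 between the 2 brackish water libraries and 0.64 between the 2 seawater libraries, against 0.63 between the means of brackish water and seawater. The 95th percentiles were 3.63 between the brackish water libraries and 3.74 between the seawater libraries. The difference of means exceeded both replicate differences in 1045 components, or 16.0%. Brackish water library 1 had the higher level in 5453 components (83.5%). In 2037 of them library 2 was lower by 2 or more on the log2(RPKM + 1) scale, and in 343 others library 1 was lower by as much. These values include any offset between whole libraries. The TMM factors, explained below, were 1.34 and 0.463 for brackish water libraries 1 and 2.

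Placed against the seawater pair on RPKM, the brackish water libraries most often lay on opposite sides. Library 1 was above both seawater libraries in 3456 components (52.9%), and library 2 was below both in 4487 (68.7%). In 2381 components (36.5%) library 1 was above and library 2 below both seawater libraries, and in 126 (1.93%) it was the other way round. Both brackish water libraries were above both seawater libraries in 481 components (7.37% of all tested) and below both in 1240 (19.0%). An exact permutation test of 2 libraries against 2 cannot give a two-sided p under 0.333, so these counts are descriptions. Were the 4 libraries exchangeable, the same share of 0.333 of components would on average fall in the 2 sets together. With 1 library left out, the counts above and below seawater were 654 and 4487 when brackish water library 1 was dropped and 3456 and 1669 for library 2. They were 775 and 2117 when seawater library 1 was dropped and 1297 and 2024 for seawater library 2. Dropping a library makes the condition easier to meet, so these counts could not fall below 481 and 1240. Those with a brackish water library dropped are the positions of the other brackish water library alone. The tissue was sequenced in bulk, and fewer cells of a type and less RNA per cell cannot be told apart.

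**Figure D1:**
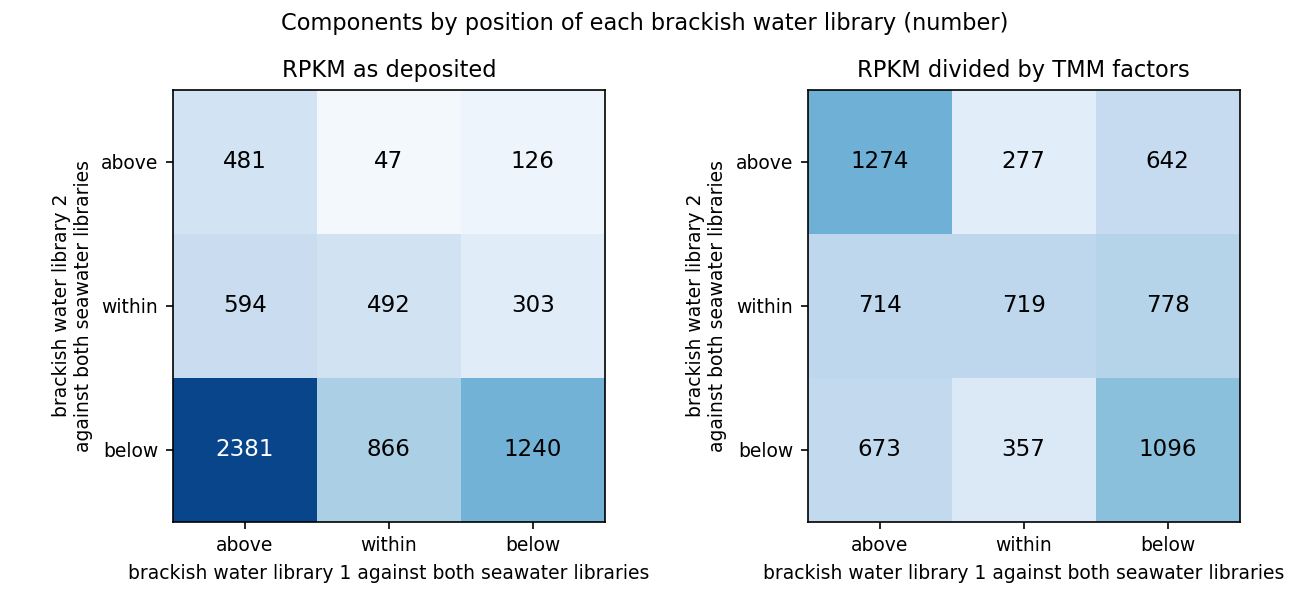
Number of components, of 6530, by the position of brackish water library 1 (horizontal) and library 2 (vertical) against both seawater libraries, on RPKM as deposited (left) and on RPKM divided by TMM factors (right). On RPKM the fullest cell is library 1 above and library 2 below (2381), and with TMM factors it is both above (1274).

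These positions depended on how the libraries were scaled. TMM factors, which set the bulk of components equal between libraries, were 1.34 and 0.463 in brackish water, 1.26 and 1.43 in fresh water, and 0.852 and 1.06 in seawater. Dividing RPKM by them moved the median log2 difference between brackish water and seawater to -0.01, against -0.23 on RPKM. With TMM factors the brackish water libraries were both above the seawater pair in 1274 components and both below it in 1096, so 53.8% of the components without overlap were higher in brackish water, against 27.9% on RPKM. Of the 481 and 1240 components, 467 and 648 stood in the same set under both scalings. The components with library 1 above and library 2 below seawater numbered 673 with TMM factors and those of the other order 642, against 2381 and 126 on RPKM.

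The level of a component went with its position. Among the 2585 components of 5 to 10 RPKM, the median difference from the seawater mean was 0.90 in brackish water library 1 and -0.84 in library 2, both on the log2(RPKM + 1) scale. Among the 142 components of 1000 RPKM or more it was -0.59 and -0.66. Library 1 thus passed across the seawater level with rising abundance, at a median of -0.04 among 1007 components of 30 to 100 RPKM, and library 2 was below the seawater mean in all 5 classes on RPKM. With TMM factors the medians of the most abundant class were -1.08 in library 1 and 0.38 in library 2, so the sign for library 2 turned. The share of components below seawater in both brackish water libraries grew from 11.5% in the lowest class to 54.9% in the highest on RPKM, but lay between 12.7% and 21.0% with TMM factors, lowest in the most abundant class. The medians of the fresh water libraries, which are set against the same seawater libraries, were 0.81 and 1.07 at 5 to 10 RPKM and -0.71 and -0.84 at 1000 RPKM or more.

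**Figure D2:**
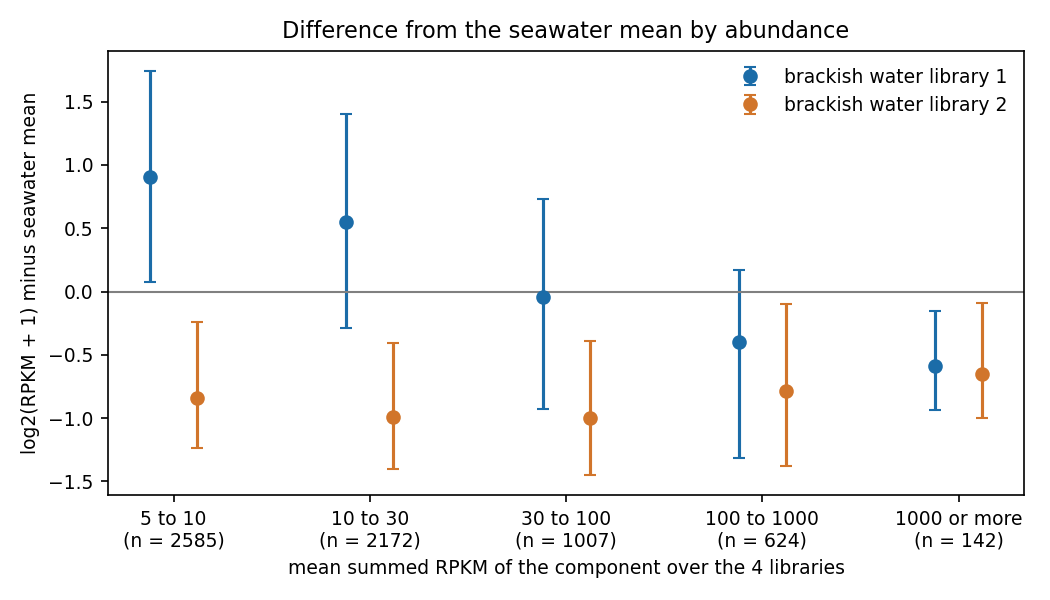
Median difference of each brackish water library from the mean of the 2 seawater libraries on the log2(RPKM + 1) scale (points), with the 25th and 75th percentiles over components (bars), by mean summed RPKM. Library 1 lies above 0 at 5 to 10 RPKM (0.90) and below 0 at 1000 RPKM or more (-0.59), while library 2 lies below 0 in each class. With TMM factors the library 2 median at 1000 RPKM or more is 0.38.

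The filter bears on the low components, since a component can reach a mean of 5 RPKM through 1 library. Brackish water library 1 alone was at 5 RPKM or more in 609 kept components (9.33%), brackish water library 2 alone in 24, seawater library 1 alone in 148 and seawater library 2 alone in 12. Both brackish water libraries and neither seawater library were at 5 RPKM or more in 128 components (1.96%), and the reverse held in 106 (1.62%). All 4 libraries were at 5 RPKM or more in 2855 components (43.7%). The 441 components just inside the filter, at 5 to 5.5 RPKM, had medians of 9.59 and 2.04 RPKM in brackish water and 3.38 and 4.88 RPKM in seawater. The 517 components just outside, at 4.5 to 5 RPKM, had 8.65 and 1.75 RPKM in brackish water and 3.04 and 4.67 RPKM in seawater. Both bands had the same order of libraries. They were taken at nearly the same mean, so this cannot tell whether the filter favours components high in 1 library.

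The components with both brackish water libraries above seawater were mostly of low level and mostly of 1 transcript. The 481 had median levels of 23.8 and 5.73 RPKM in the brackish water libraries, 16.2 and 24.9 RPKM in the fresh water libraries, and 1.91 and 2.47 RPKM in the seawater libraries. The seawater medians lay under the filter of 5 RPKM, which such components could pass through brackish water alone, chiefly library 1. The low seawater levels and the gaps of this set are therefore not independent of the filter. Brackish water library 1 was the higher of its pair in 435 of them (90.4%, against 83.5% of all kept). A single transcript made up 377 (78.4%), against 56.8% of all kept components, and the median length of the longest transcript was 976 bases against 1642 bases. The closest brackish and seawater libraries were at least 1 apart on the log2(RPKM + 1) scale in 185 of the 481 and at least 2 apart in 49. Both seawater libraries were without a read in 6 components that had reads in both brackish water libraries, and these 6 reached at most 76.1 RPKM in library 1 and 14.1 RPKM in library 2. The reverse, no read in either brackish water library and reads in both seawater libraries, held for 4 components, with medians of 30.5 and 0.139 RPKM in seawater libraries 1 and 2.

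The component with the widest gap above seawater was comp218033_c0, made of 2 short transcripts of 411 and 339 bases. It had 33.9 and 48.9 RPKM in brackish water libraries 1 and 2, against 0.358 and 0.341 RPKM in seawater libraries 1 and 2. Fresh water held 0 and 7.13 RPKM. The groups did not overlap, and the seawater values rested on 2 and 4 reads against 459 and 610 reads in brackish water. After scaling to the total reads of each group the ratio was 122 (95% exact interval 55.9 to 334). The interval covers counting error only, on reads pooled over the 2 libraries of a group. It makes no allowance for library composition, spread between libraries or the choice of this component by its gap. The component's log2 difference was 4.95 with a standard error of 1.11 and did not pass (limma adjusted p = 0.851). Its adjusted p ran from 5.92e-07 to 0.999 in 21 other settings by limma, edgeR or DESeq2, and 5 of these passed. Both transcripts were higher in brackish water, the longer at 12.7 and 9.57 RPKM against 0 and 0.0734 RPKM in seawater, and the shorter at 21.1 and 39.3 RPKM against 0.358 and 0.267 RPKM. In fresh water library 2 the longer transcript had 68 reads and the shorter 0, so the forms were not held in 1 ratio across libraries.

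The component comp214292_c0, a single transcript of 413 bases, was the next by the same measure. It had 19.2 and 14.1 RPKM in brackish water, from 294 and 206 reads, and 0 reads in both seawater libraries. Fresh water held 0 and 9.92 RPKM. Against a floor of 3 reads per library, 0.440 and 0.219 RPKM in seawater, the brackish water mean of 16.7 ± 3.62 RPKM (SD, n = 2) was at least 50.5-fold higher. The fitted log2 difference of 4.13 with a standard error of 1.27 depends on the pseudocount and did not pass (limma adjusted p = 0.916). In 20 other settings its adjusted p by limma, edgeR or DESeq2 ran from 1.19e-05 to 0.999, and 3 passed. Fresh water library 1 had no read of either of these components while library 2 did, so the fresh water pair was split for both.

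On RPKM, components with both brackish water libraries below seawater were more abundant. With TMM factors 648 of the 1240 stayed in this set. The share below seawater was then lowest in the class of 1000 RPKM or more, at 12.7%, so this trait depended on the scaling. The 1240 of the RPKM set had median levels of 16.9 and 11.8 RPKM in brackish water, 17.8 and 14.8 RPKM in fresh water, and 36.8 and 29.9 RPKM in seawater. They took 21.4% and 18.4% of the brackish water reads, 21.7% and 19.3% of the fresh water reads, and 39.1% and 35.2% of the seawater reads. Their gaps were narrow, with a median of 0.41 between the closest libraries on the log2(RPKM + 1) scale against 0.72 for the 481 above. In 152 the gap was at least 1, and in 7 at least 2. Their longest transcripts had a median of 1559 bases, and 58.6% were of 1 transcript, close to the 56.8% of all kept components.

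The widest gap below seawater was that of comp244453_c0, with 2 transcripts of 1333 and 1131 bases. It had 1.09 and 0.763 RPKM in brackish water, against 16.1 and 17.8 RPKM in seawater. Fresh water held 0.933 and 0.849 RPKM. The brackish water mean of 0.924 ± 0.228 RPKM lay 18.3-fold below the seawater mean of 16.9 ± 1.22 RPKM (SD, n = 2 each). On RPKM the replicate libraries stood close together in each group. With TMM factors the values were 0.812 and 1.65 in brackish water against 18.9 and 16.9 in seawater. The log2 difference on RPKM was -3.22 with a standard error of 0.91 and did not pass (limma adjusted p = 0.916). The adjusted p by limma, edgeR or DESeq2 in 20 other settings ran from 1.59e-08 to 0.999, with 2 that passed. Both transcripts had the same direction, the longer at 0.608 and 0.488 RPKM in brackish water against 9.37 and 11.2 RPKM in seawater, and the shorter at 0.478 and 0.275 RPKM against 6.70 and 6.54 RPKM.

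The component comp242055_c0 was a single transcript of 1650 bases at a higher level. It had 24.1 and 25.5 RPKM in brackish water, from 1472 and 1486 reads, against 219 and 166 RPKM in seawater, from 5954 and 9090 reads. Fresh water held 3.50 and 1.96 RPKM. On RPKM the brackish water libraries agreed closely, at 24.8 ± 0.979 RPKM against 192 ± 37.1 RPKM in seawater (SD, n = 2 each). The component's log2 difference was -2.89 with a standard error of 0.69. It did not pass (limma adjusted p = 0.851), and 1 of 21 other settings passed, with adjusted p by limma, edgeR or DESeq2 from 0.0271 to 0.999. All 4 named components stayed in their set with TMM factors, where comp242055_c0 stood at 18.0 and 55.0 in brackish water against 257 and 158 in seawater.

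**Figure D3:**
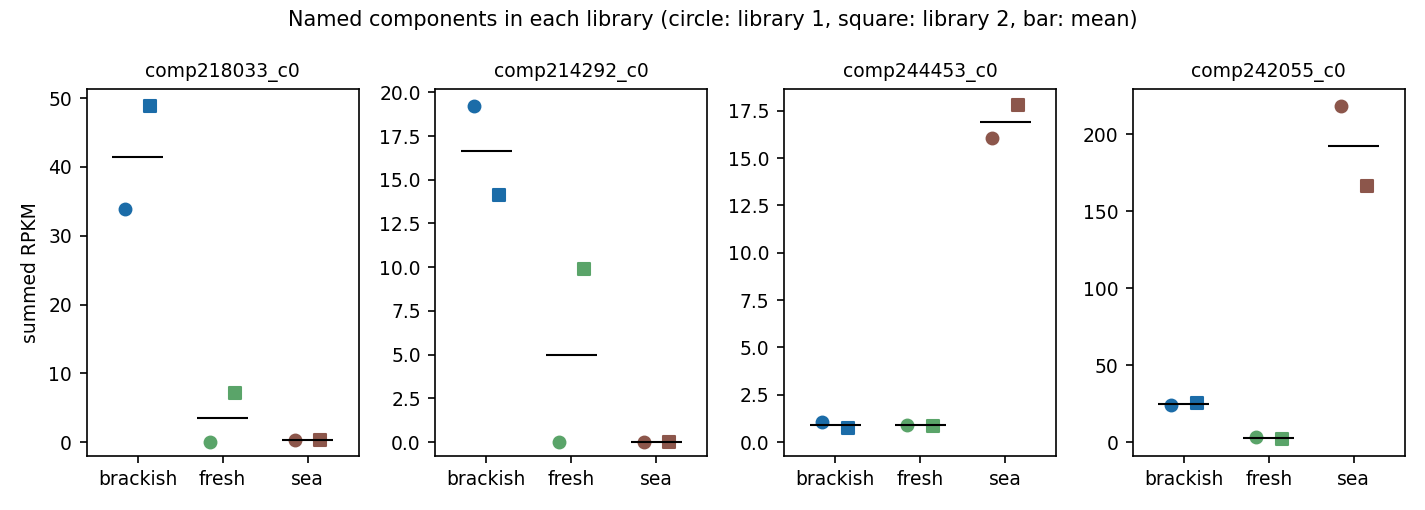
Summed RPKM of the 4 named components in each library, with brackish water left, fresh water in the middle and seawater right. Circles are library 1, squares library 2 and bars the mean of 2 libraries. All 4 were chosen for brackish and seawater points that do not overlap, for example 33.9 and 48.9 against 0.358 and 0.341 RPKM for comp218033_c0.

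A few very abundant components took a large share of the reads of brackish water library 2. Of the 142 components of 1000 RPKM or more, 5 were above both seawater libraries in both brackish water libraries (3.52%, against 7.37% of all tested). They ran from 2578 to 15263 RPKM in brackish water library 1, from 7538 to 53956 RPKM in library 2, from 530 to 3165 RPKM in seawater library 1 and from 618 to 3230 RPKM in seawater library 2. Together they took 8.07% and 26.3% of the brackish water reads, 1.96% and 0.841% of the fresh water reads, and 1.82% and 1.69% of the seawater reads. The brackish water mean was 8.81 to 12.7 times the seawater mean. The ratio of brackish water library 2 to library 1 lay between 2.92 and 3.54 in all 5, and the ratio of seawater library 2 to library 1 between 0.877 and 1.17. In fresh water the ratio of library 2 to library 1 ran more widely, from 0.334 to 0.636. With TMM factors they stayed above both seawater libraries, and the ratio of the brackish water libraries grew to between 8.44 and 10.2.

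The log2 differences of the 5 ran from 2.94 to 3.43. By limma with all 6 libraries none of the 5 passed (adjusted p = 0.694 for each, at unadjusted p between 0.000642 and 0.00138), whereas with the 4 libraries alone limma gave adjusted p of 6.09e-18 to 9.19e-05 and DESeq2 with 6 libraries 0.00275 to 0.0109. Over the 21 alternatives their adjusted p ran from 3.34e-45 to 0.80. Of the 5, 4 were among the 10 components with the highest mean level. The most abundant of all, with 7 transcripts, had 15413 and 50421 RPKM in brackish water and 15776 and 4546 RPKM in seawater. Its brackish water libraries differed 3.27-fold, much as in the 5, but its groups overlapped, with seawater library 1 above brackish water library 1.

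Most other abundant components were lower in brackish water on RPKM. Of the 142, 78 (54.9%) were below both seawater libraries in both brackish water libraries, against 19.0% of all tested. Their log2 differences ran from -2.58 to -0.25 with a median of -0.81. They took 10.9% and 10.5% of the brackish water reads, 10.7% and 9.29% of the fresh water reads, and 20.1% and 18.5% of the seawater reads. With TMM factors 18 of the 142 were in this position, 15 of them among the 78. The mean stayed lower in brackish water than in seawater for 76 of the 78 under that scaling, with a median log2 difference of -0.54. Over all 142 the median was -0.44 with TMM factors against -0.71 on RPKM, and the brackish water libraries went opposite ways, with medians of -1.08 for library 1 and 0.38 for library 2 against the seawater mean.

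**Figure D4:**
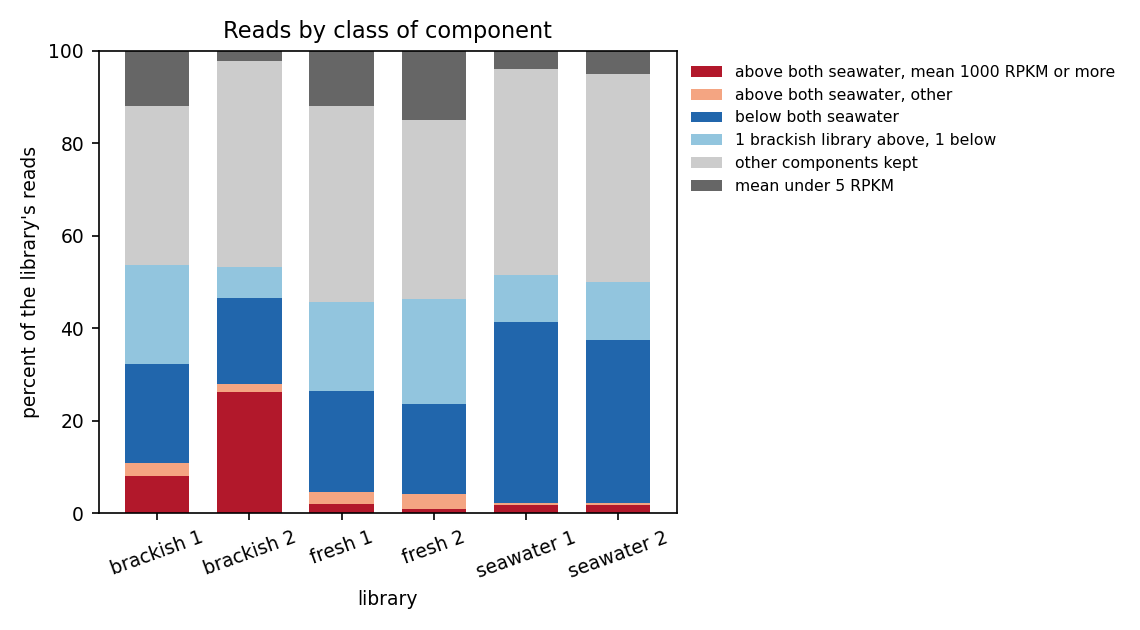
Percent of the reads of each library in 6 classes of component, with brackish water left, fresh water in the middle and seawater right. The 5 most abundant components above both seawater libraries (bottom segment) take 26.3% of brackish water library 2 and 8.07% of library 1, against 1.82% and 1.69% in seawater. Components below both seawater libraries take 21.4% and 18.4% in brackish water against 39.1% and 35.2% in seawater, on the reads as deposited.

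The 2381 components with library 1 above and library 2 below seawater, with the 126 of the other order, made up the largest class on RPKM, 2507 in all, against 1315 with TMM factors. Their median levels were 18.6 and 3.69 RPKM in brackish water, 16.9 and 20.6 RPKM in fresh water, and 7.24 and 9.58 RPKM in seawater. They held 21.4% and 6.74% of the brackish water reads, 19.4% and 22.8% of the fresh water reads, and 10.1% and 12.5% of the seawater reads. Their longest transcripts were long, with a median of 2033 bases. By level they fell off steeply, from 47.3% of components of 5 to 10 RPKM to 5.63% of those of 1000 RPKM or more.

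The length of a component went with its position as well. Both brackish water libraries were above seawater in 14.5% of 692 components whose longest transcript was under 500 bases, in 11.8% of 1256 at 500 to 1000 bases, in 7.35% of 1905 at 1000 to 2000 bases and in 3.47% of 2677 at 2000 bases or more. The share on opposite sides rose over the same classes, from 24.9% to 47.6%. Within 4 of the 5 classes of level the same held for components under 1000 bases, for instance 20.4% above seawater of 710 at 5 to 10 RPKM, against 6.93% of 1875 longer ones. In the class of 1000 RPKM or more none of 64 short components and 5 of 78 longer ones were above seawater. The shares below seawater were 10.4% of the short and 11.9% of the longer components at 5 to 10 RPKM, 30.1% and 35.2% at 100 to 1000 RPKM, and 64.1% and 47.4% at 1000 RPKM or more. Short components thus had the lower share below seawater in the classes under 1000 RPKM and the higher share in the class of 1000 RPKM or more. With TMM factors the shares above seawater kept their order over the 4 length classes in a narrower range, at 24.7%, 21.3%, 18.7% and 17.9%.

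**Figure D5:**
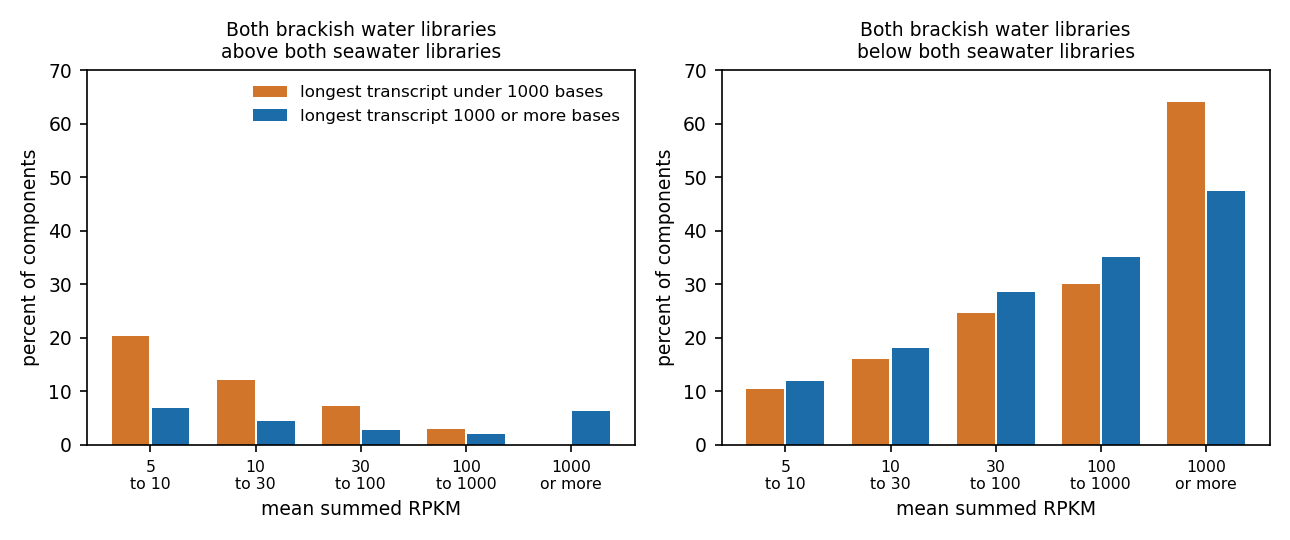
Percent of components with both brackish water libraries above (left) or below (right) both seawater libraries, by mean summed RPKM and by length of the longest transcript, on RPKM as deposited. Short components are above seawater more often than long ones in the lower 4 classes, such as 20.4% against 6.93% at 5 to 10 RPKM.

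The number of transcripts in a component followed the same direction. Of 3707 components with 1 transcript, 10.2% were above seawater in both brackish water libraries, against 3.74% of 1900 with 2 or 3 and 3.58% of 923 with 4 or more. Longer components had more transcripts, with median longest transcripts of 1281, 2089 and 3011 bases in these classes, so the effects of number and length were not told apart. The median log2 difference between brackish water and seawater was alike in the 3 classes, at -0.23, -0.26 and -0.20 on RPKM and at -0.01, -0.05 and 0.03 with TMM factors. The sign on RPKM turned with the library, at 0.48, 0.42 and 0.44 for brackish water library 1 alone and at -0.89, -0.92 and -0.91 for library 2 alone. With TMM factors the shares above seawater were 22.3%, 16.7% and 14.3%, in the same order.

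Within components of several transcripts, the leading form (the transcript with the highest RPKM) was mostly the same in brackish water and seawater. Among 2785 components with 2 or more transcripts and reads in all 4 libraries, the leading form was the same in all 4 libraries in 1701 (61.1%). It differed between the 2 brackish water libraries in 628 (22.5%) and between the 2 seawater libraries in 603 (21.7%). A form that led in both brackish water libraries and another that led in both seawater libraries was found in 128 (4.60%), fewer than the components in which replicates disagreed. In these 128 the form leading in brackish water held a median of 52.1% and 51.2% of the component's RPKM in the brackish water libraries, against 31.1% and 34.5% in the seawater libraries.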

How the data were processed

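The authors deposited RPKM per transcript and library, per the file headers, for an assembly that the study's title calls de novo; the sources used here name no assembler, aligner or counting tool. RPKM times transcript length gave whole reads for 100% of values above 0, within 0.1 read. Their brackish water and seawater averages equalled 100% of the mean read counts (estimated counts) that the authors deposited for 221076 transcripts. The fresh water reads were not checked in this way. RPKM and reads were summed per component, and the filter, a mean of at least 5 RPKM, used the 4 compared libraries. limma 3.58.1 with a trend was fitted to log2(RPKM + 1) of 6530 components in 6 libraries, with group as the only term, 3 residual degrees of freedom and a Benjamini-Hochberg threshold of 0.05. Fold changes on this scale understate those of low components. edgeR 4.0.16 and DESeq2 1.42.0 were run on the recovered reads. All tests were tried on simulated reads. The members and lists were chosen with earlier results of these data known.

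With no gene names, 2 components were named in each direction. They had the widest gap between the closest brackish and seawater libraries on log2(RPKM + 1), among components whose groups did not overlap, since none passed the test. The replicates of a group were not duplicates, with chi-square values per component of 622 in brackish water, 61.1 in fresh water and 475 in seawater. No p-value, fold change or mark of the authors was used.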

Additional observations from a re-analysis of the deposited data

Results flagged for a closer look

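Components under a mean of 5 RPKM were outside the comparison. They held 11.9% of the reads of brackish water library 1, above both seawater libraries, at 3.99% and 4.95%. Brackish water library 2 was at 2.23%, and the fresh water libraries were at 11.9% and 14.9%.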

How the results depend on the processing

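The count of 0 called components held with TMM factors, quantile normalization, pseudocounts of 0.1 and 5, a filter of 20 RPKM, the leading transcript in place of the sum, edgeR with 6 or 4 libraries and the replicate block, in which 0 were called with the library number as a term. At an unadjusted p under 0.05 these limma and edgeR fits had 171 to 864 components. It became 12, all higher, with a filter of 1 RPKM, 79 (24 higher, 55 lower) with no filter beyond a value above 0, and 14 (11 higher, 3 lower) with the 4 libraries alone. DESeq2 called 625 (498 higher, 127 lower) with 6 libraries and 307 (274 higher, 33 lower) with 4. Same-numbered brackish and seawater libraries deviated in opposite directions (r = -0.50 over components), and a crossed pairing with 4 libraries, added after seeing the data, called 26 (16 higher, 10 lower). Leaving out 1 library gave 0 to 13 calls, 0 to 11 higher and 0 to 2 lower, with 0 by limma when brackish water library 1 or 2 was dropped (1894 and 1815 at an unadjusted p under 0.05). The 2 named components higher and the 2 lower in brackish water kept their direction under every alternative that gave a value. They were chosen by the gap between the groups in these same libraries. That choice largely fixed the direction in advance, so it is no separate support.

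Of the components without overlap, 481 higher and 1240 lower, the counts became 1274 higher with TMM factors, 2367 and 2029 with a filter of 1 RPKM, and 89 and 690 with one of 20 RPKM. With 1 of the 4 libraries left out, added after seeing the data, they ran from 654 to 3456 higher and from 1669 to 4487 lower. The ends were brackish water library 1 left out (654 and 4487) and library 2 left out (3456 and 1669). Leaving a library out eases the condition, so these counts could only stay or grow. The median log2 difference over all components, -0.23, turned sign with the brackish water library: it was -0.90 without library 1 and 0.45 without library 2, and -0.34 to -0.06 with a seawater library left out. It ran likewise from -0.84 to 0.90 for components of 5 to 10 RPKM and from -0.99 to 0.55 for those of 10 to 30 RPKM. The median log2 difference of components of 1000 RPKM or more, -0.71, was -0.44 with TMM factors and -0.72 to -0.59 with 1 library left out. For components of 100 to 1000 RPKM, at -0.67, it ran from -0.81 to -0.40. The cause was not tested. The shallowest library, seawater library 1, had a median of 318 reads per kept component, and 5% of them had 18 reads or fewer.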
